A study of Mus musculus with 8 samples.

Results

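The genes described here are 45 regulators of apoptosis: the BCL2 family, caspases, inhibitor of apoptosis proteins (IAPs), death receptors with the necroptosis kinases, and p53 with target genes. They were chosen by name, by a rule that uses no measured value, and all 45 were found among the 31053 Ensembl genes counted in each library. The retinal pigment epithelium (RPE), the pigmented monolayer behind the photoreceptors, was isolated at P29 from untreated mice labelled C57/Bl6. There were 4 libraries of Bbs8-/- mice, in which the gene for a subunit of the BBSome, a protein complex of cilia, is knocked out, and 4 of wild-type (Bbs8+/+) littermates. No Cre driver or transgene is named in the sources used here. Sex was not determined, and the study describes each animal as a biological replicate (n = 4 libraries per genotype throughout). The question was which death and survival genes differed between the genotypes.

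Apoptosis runs along a pair of converging routes. In the mitochondrial route, BH3-only proteins sense damage and antagonise the guardians BCL2, BCL-XL, BCL-W and MCL1, which frees the effectors BAX and BAK to open the outer mitochondrial membrane. Cytochrome c then leaves, assembles APAF1 into the apoptosome and activates the initiator caspase of that complex, and executioner caspases dismantle the cell. In the death receptor route, ligands of the TNF family recruit FADD and an initiator caspase, a step held back by CFLAR, and RIPK kinases can divert the signal to necroptosis. IAPs bind caspases or ubiquitinate their partners. The RPE is a post-mitotic epithelium whose cells are not replaced in the adult mouse, and its loss is a feature of retinal degeneration.

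Each library held 2389835 to 3093428 counts on genes, so that 3 counts, taken as the floor, were 1.02 to 1.23 CPM (counting error only). The libraries were made by QuantSeq 3′, which reads the end of each polyadenylated transcript, and levels are given as CPM (counts relative to library size) with edgeR's TMM factors and no division by length. Ttc8, the annotation's name for Bbs8, had 105 to 144 counts in Bbs8+/+ and 5 to 15 in Bbs8-/- libraries (log2 difference −3.34, adjusted p = 2.47e-11 by edgeR). Xist, expressed from the X chromosome in females, was at 71.1, 66.8, 61.3 and 41.3 CPM in Bbs8+/+ and at 212, 205, 199.6 and 209 CPM in Bbs8-/- libraries (log2 difference 1.78, adjusted p = 2.23e-13 by edgeR). The Y-linked gene Ddx3y was at 73.6 to 108 CPM in Bbs8+/+ and 66.7 to 86.4 CPM in Bbs8-/- libraries. Eif2s3y, also Y-linked, was at 10.2 to 14.3 CPM and 4.11 to 9.20 CPM, without overlap (log2 difference −0.97, adjusted p = 0.0936 by edgeR). The Y-linked genes Uty (−0.43) and Kdm5d (−0.19) overlapped between genotypes. RNA of both sexes was thus present in every library, which goes against 1 animal per library, and whether animals were pooled is not given in the sources used here. The p-values and SDs measure the spread between these libraries. Whether that is also the spread between animals cannot be told, because the animals in each library are not given. The share of rows without a gene was also higher in all mutant libraries, at 53.6% to 54.2%, than in all controls, at 50.95% to 52.4%. The 18 listed RPE marker genes were all above 0. They summed to 41385 to 42557 CPM in Bbs8+/+ and 49459 to 53365 CPM in Bbs8-/- libraries (3 up-regulated and 5 down-regulated). The other marker lists, apart from surface epithelium, also had no gene at 0, so detection alone does not set RPE apart. The sum of photoreceptor markers was above that of RPE markers in every Bbs8+/+ library and below it in every Bbs8-/- library. Of 26 listed, 19 were down-regulated and 4 up-regulated, and the sum fell from 68974 to 72571 CPM to between 29318 and 30058 CPM. Sums were also lower for lens (21 of 21 genes down-regulated) and erythrocytes (5 of 10), and higher for glia (6 of 12 up-regulated) and surface epithelium (7 of 13 up-regulated, with Krt12 and Dsg1a at 0). For each of these 6 lists the genotypes did not overlap (p = 0.0286 by a two-sided exact permutation of libraries, the lowest value possible with 4 against 4, adjusted p = 0.0429 over 9 lists). Sums of myeloid (p = 0.171, exact permutation test), endothelial (p = 0.0857, exact permutation test) and fibroblast markers (p = 0.0857, exact permutation test) did not pass 0.05. In such bulk samples, fewer cells of a type and less RNA per cell cannot be told apart.

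Of the 45 genes, 38 passed the filter of at least 1 CPM in at least 4 libraries, and 4 were differentially expressed at an adjusted p under 0.05. Xiap and Faim, both inhibitors of cell death, were down-regulated, and the executioner caspase gene Casp6 and the TNF receptor gene Tnfrsf1a were up-regulated. DESeq2 called the same 4 genes. This share, 4 of 38 or 10.5%, was near that of all genes, of which 12.3% of 12889 tested were called (5.46% up-regulated and 6.8% down-regulated). Scaling by library size alone changed the share of all called genes that were up-regulated from 44.5% to 60.5%, and among the members it added Mcl1 as a further up-regulated gene. The fitted value was above 0 for 25 members (65.8%) and below 0 for 13, and it was above 0 for 51.8% of all tested genes. Their median was 0.09 on the log2 scale, and that of all tested genes 0.02. For 5 of the 38 members all mutant libraries lay on one side of all controls, which was so for 16% of all tested genes.

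**Figure D1:**
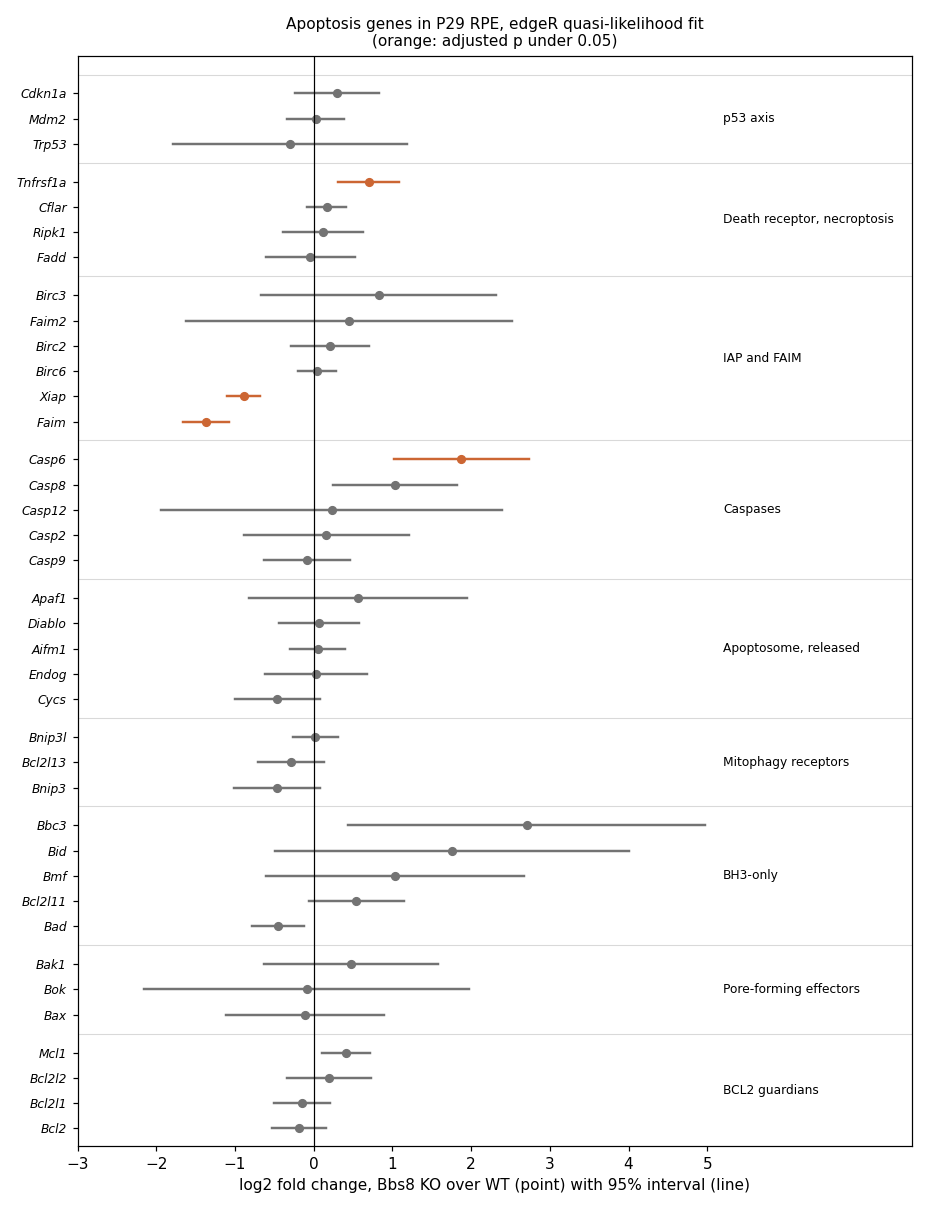
Log2 fold changes of the 38 tested members (x axis, Bbs8-/- over Bbs8+/+) by role, with points for the estimate and lines for the 95% interval of edgeR's fit. The 4 orange genes passed an adjusted p of 0.05, with Faim at −1.37 and Casp6 at 1.88 as the extremes among them, and many intervals of weakly expressed genes span several units.

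Among the 6 IAP and FAIM genes the results split sharply by gene. XIAP is the IAP that binds and inhibits active caspases directly. Xiap (ENSMUSG00000025860, GRCm38 chromosome X, 42059679 to 42109656, forward strand) was at 471, 518, 542 and 439 CPM in the Bbs8+/+ libraries and at 342, 252, 257 and 215 CPM in the Bbs8-/- libraries. The mutant libraries were all below the controls, with 1 Bbs8-/- library nearer to the controls than the others. The mean fell from 492 ± 46.8 to 266 ± 54.1 CPM (SD, n = 4). On the log2 scale this was −0.89 with a standard error of 0.104 (adjusted p = 2.41e-08 by edgeR).

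FAIM, the Fas apoptotic inhibitory molecule, protects cells from death receptor signals. Faim (ENSMUSG00000032463, chromosome 9, 98986373 to 99002021, forward strand) was at 111, 112, 108 and 133 CPM in Bbs8+/+ and at 43.1, 37.27, 46.4 and 52.8 CPM in Bbs8-/- RPE. The genotypes were far apart. The mean fell from 116 ± 11.4 to 44.9 ± 6.47 CPM (SD, n = 4). The log2 difference was −1.37 with a standard error of 0.145 (adjusted p = 2.31e-09 by edgeR). Xiap and Faim were past the threshold in all 15 alternative fits, with log2 fold changes from −1.03 to −0.79 and from −1.46 to −1.28.

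Photoreceptor markers fell in the same libraries, by 1.25 on the log2 scale for their sum. Per 1000 CPM of photoreceptor markers, Faim was at 1.53 to 1.85 CPM in Bbs8+/+ and 1.26 to 1.76 CPM in Bbs8-/- libraries, so that on this scale the genotypes overlapped. Xiap on this scale was at 6.09 to 7.74 CPM in Bbs8+/+ and 7.18 to 11.4 CPM in Bbs8-/- libraries, which also overlapped but lay on the higher side. The part of photoreceptor RNA in either fall was not tested. Xiap lies on the X chromosome, Xist differed between the same libraries, and the part of the sexes in its fall was not tested.

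None of the other IAPs passed the threshold by edgeR or DESeq2, or had an unadjusted p under 0.05. Birc6, which encodes a giant ubiquitin ligase, was at 140, 172, 126 and 125 CPM in Bbs8+/+ and at 139, 166, 136 and 138 CPM in Bbs8-/- libraries. These values overlapped throughout, and the log2 fold change of 0.04 had a 95% interval from −0.20 to 0.28. Birc2, encoding a ubiquitin ligase of the TNF receptor complex, was at 0.21 on the log2 scale (adjusted p = 0.676). Its relative Birc3 was low, with 1 to 20 counts per library, and Faim2, a membrane antagonist of Fas signals known from neurons, had 1 to 10 counts. Summed over the 6 genes, the level was 722 to 830 CPM in Bbs8+/+ and 448 to 545 CPM in Bbs8-/- libraries. The lower sum lay in Xiap and Faim, and the fitted log2 fold changes of the other 4 genes were above 0.

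**Figure D2:**
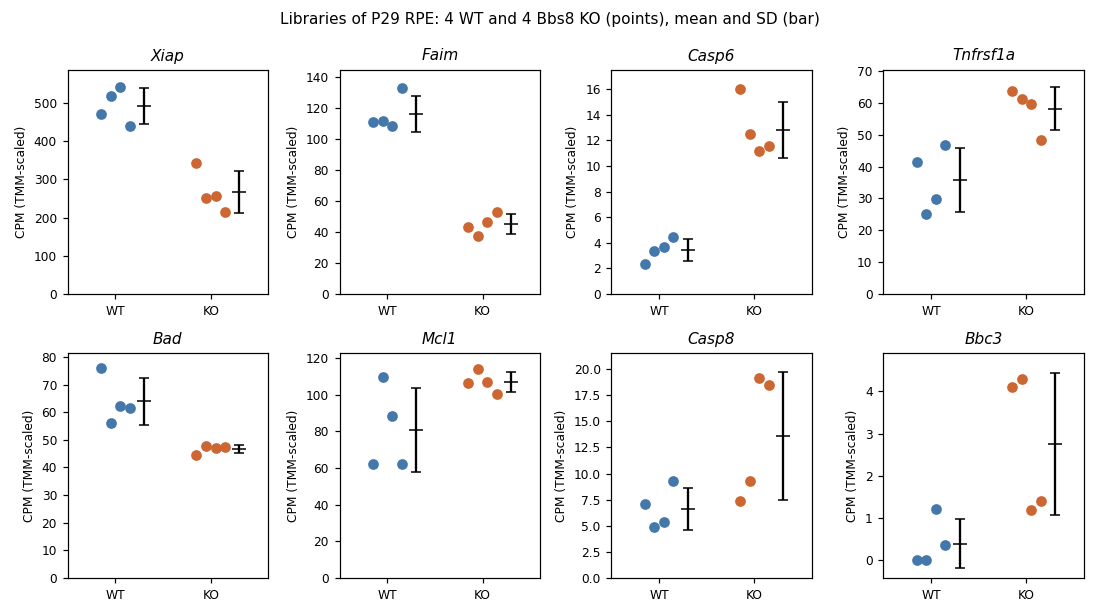
CPM (y axis) of 8 members in each of 4 Bbs8+/+ (WT) and 4 Bbs8-/- (KO) libraries, with the mean and SD beside the points. Xiap, Faim, Casp6, Tnfrsf1a and Bad do not overlap between genotypes, while Mcl1, Casp8 and Bbc3 do.

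The promoters of the 4 differentially expressed members are shown because these genes moved in opposite directions in the same libraries. The sequences are RefSeq windows of GRCm38.p6, 250 bases before to 50 after an annotated start. Capitals mark GC boxes (GGGCGG on either strand) and STAT motifs (TTCNNNGAA, read the same on both strands). For Xiap, the first of 3 listed starts is shown.
Xiap, chrX:42068148-42068447, forward strand: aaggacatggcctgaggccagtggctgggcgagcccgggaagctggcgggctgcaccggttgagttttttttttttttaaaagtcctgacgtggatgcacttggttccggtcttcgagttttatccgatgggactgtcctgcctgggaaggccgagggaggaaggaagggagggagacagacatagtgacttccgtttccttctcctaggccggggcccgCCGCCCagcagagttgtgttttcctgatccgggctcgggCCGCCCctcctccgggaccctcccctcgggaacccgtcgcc
Faim, chr9:98986123-98986422, forward strand: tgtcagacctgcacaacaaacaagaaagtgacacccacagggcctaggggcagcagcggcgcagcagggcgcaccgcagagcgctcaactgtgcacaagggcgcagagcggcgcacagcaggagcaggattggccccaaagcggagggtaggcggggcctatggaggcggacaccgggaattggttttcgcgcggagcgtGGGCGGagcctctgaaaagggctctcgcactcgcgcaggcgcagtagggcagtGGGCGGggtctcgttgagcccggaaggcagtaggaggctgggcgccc
Casp6, chr3:129901165-129901464, forward strand: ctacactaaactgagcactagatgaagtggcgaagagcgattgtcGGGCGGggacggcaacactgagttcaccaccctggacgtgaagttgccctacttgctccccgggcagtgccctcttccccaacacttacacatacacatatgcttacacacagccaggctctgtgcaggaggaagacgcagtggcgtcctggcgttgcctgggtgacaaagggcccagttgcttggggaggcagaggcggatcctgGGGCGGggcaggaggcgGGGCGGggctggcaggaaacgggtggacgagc
Tnfrsf1a, chr6:125349473-125349772, forward strand: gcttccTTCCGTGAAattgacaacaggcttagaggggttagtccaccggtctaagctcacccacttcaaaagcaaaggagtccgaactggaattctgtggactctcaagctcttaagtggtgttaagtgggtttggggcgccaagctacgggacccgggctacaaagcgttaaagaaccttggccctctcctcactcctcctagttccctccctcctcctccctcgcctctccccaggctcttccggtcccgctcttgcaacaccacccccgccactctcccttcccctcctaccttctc

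GC boxes, motifs of many broadly expressed genes, occurred at 2 sites in the Xiap window, 2 in the Faim window and 3 in the Casp6 window, but not in the Tnfrsf1a window. The Tnfrsf1a window held the only STAT motif of the 4, 244 bases before the start. Windows were listed for 36 of the 38 tested members, 49 windows in all. A GC box was present in 65.3% of them and in 35.7% of all 32851 windows. A STAT motif was present in 6.12% against 8.30%, the CRX/OTX core TAATCC in 2.04% (a window of Bax) against 7.06%, and the E-box CACGTG in 8.16% against 7.15%, both strands searched. The p53 half-site was matched in 12.2% of the members' windows and 8.36% of all, and the members were Bax, Birc2, Bmf, Cdkn1a, Mdm2 and Trp53. The members' windows are those of tested genes, while all windows also hold genes that did not pass the filter, so the shares compare unlike sets. These matches describe letters in a window, not bound sites.

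Of the 7 caspase genes, 5 were tested and Casp6 was differentially expressed. Its product is an executioner that cleaves lamins. Casp6 (ENSMUSG00000027997, chromosome 3, 129901425 to 129914103, forward strand) was at 2.37, 3.36, 3.68 and 4.46 CPM in Bbs8+/+ RPE, from 7 to 12 counts, and at 16.0, 12.5, 11.2 and 11.5 CPM in Bbs8-/- RPE, from 28 to 39 counts. The lowest mutant library was above the highest control. The mean rose from 3.47 ± 0.865 to 12.8 ± 2.20 CPM (SD, n = 4). The log2 difference of 1.88 had a standard error of 0.421 (adjusted p = 0.00150 by edgeR), and it passed in all 15 alternative fits.

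Casp8, the initiator caspase of death receptors, was at 7.11, 4.85, 5.31 and 9.29 CPM in Bbs8+/+ and at 7.39, 9.32, 19.2 and 18.5 CPM in Bbs8-/- libraries. A pair of mutant libraries lay within or at the edge of the control range and the other pair well above it. The log2 difference of 1.03, with a standard error of 0.388, did not pass (adjusted p = 0.0800). It passed in 1 of 15 alternative fits, that without Bbs8-/- replicate 1 (1.23, adjusted p = 0.0347), and adjusted p reached 0.254 without Bbs8-/- replicate 3 (0.82).

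Casp9, the initiator caspase of the apoptosome, was at 16.6, 29.5, 18.8 and 18.6 CPM in Bbs8+/+ and at 27.5, 17.6, 14.4 and 19.2 CPM in Bbs8-/- RPE. The ranges overlapped almost fully (log2 fold change −0.09, 95% interval −0.63 to 0.46). Casp2, an initiator linked to genotoxic stress, had a log2 fold change of 0.16 with an interval from −0.89 to 1.22. Casp12, a caspase of the endoplasmic reticulum, had 0 to 12 counts per library. Summed over the 7 genes, caspase transcripts were at 33.5 to 46.8 CPM in Bbs8+/+ and 52.7 to 57.7 CPM in Bbs8-/- libraries. Within this sum the means of Casp6 (3.47 and 12.8 CPM) and Casp8 (6.64 and 13.6 CPM) differed most. Casp9, the most abundant, had means of 20.9 and 19.7 CPM.

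**Figure D3:**
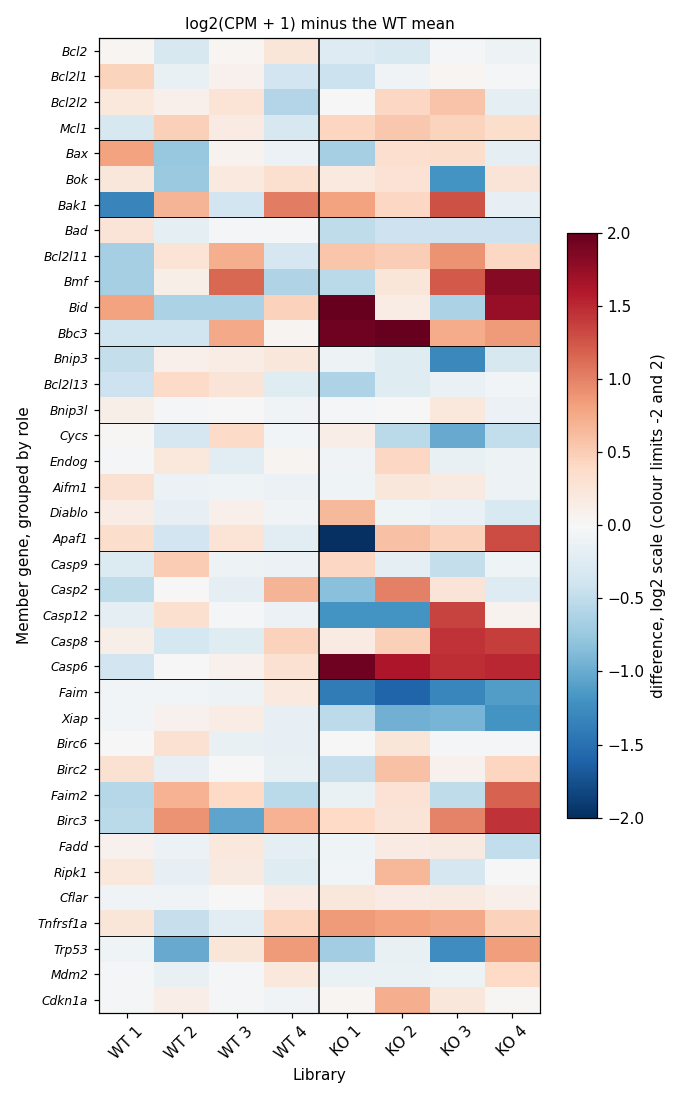
Each tested member (rows, grouped by role) in each library (columns), coloured by the difference of log2(CPM + 1) from the mean of the 4 WT libraries. Rows of Xiap and Faim are blue and Casp6 and Tnfrsf1a red in all 4 KO libraries. Some uncalled rows also keep a single colour there, such as Bad in blue and Mcl1 in red, and many others are mixed.

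Among death receptor and necroptosis genes, Tnfrsf1a was up-regulated. It encodes the main TNF receptor. Tnfrsf1a (ENSMUSG00000030341, chromosome 6, 125349362 to 125362484, forward strand) was at 41.3, 25.0, 29.8 and 46.8 CPM in Bbs8+/+ and at 63.6, 61.3, 59.6 and 48.2 CPM in Bbs8-/- libraries. The genotypes did not overlap, but the lowest mutant was close to the highest control. The mean rose from 35.7 ± 10.1 to 58.2 ± 6.85 CPM (SD, n = 4). The log2 difference was 0.70 with a standard error of 0.190 (adjusted p = 0.0103 by edgeR). Without Bbs8+/+ replicate 2, its lowest library, the log2 fold change was 0.56 and did not pass (adjusted p = 0.0652). Markers of surface epithelium rose in the same libraries from 94.8 to 144 CPM to between 223 and 264 CPM. Those of glia rose from 7032 to 7778 CPM to between 9092 and 9515 CPM. The sum of RPE markers rose from 41385 to 42557 CPM to between 49459 and 53365 CPM, and Rlbp1 is in both of the latter lists. The part of these cell types in the rises of Casp6 and Tnfrsf1a was not tested.

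Among intracellular partners of the receptor, the members Cflar, Fadd and Ripk1 did not pass the threshold by edgeR or DESeq2. Tnfaip3, Chuk and Rbck1, which are not members, passed and are described below. Cflar, the decoy that holds back the initiator caspase, was at 91.1, 91.4, 95.7 and 107 CPM in Bbs8+/+ and at 113, 107.5, 109 and 103 CPM in Bbs8-/- RPE. Its values overlapped at the top of the control range, and the log2 fold change of 0.17 had an interval from −0.08 to 0.42. Log2 fold changes were −0.04 for Fadd (interval −0.61 to 0.52), the adaptor of death receptors, and 0.12 for Ripk1 (interval −0.39 to 0.62), the kinase that directs TNF signals to survival or death. Exons of Ripk1 overlap Serpinb6a on the other strand, and the use of strand in counting is not given in the sources used here, so reads of this pair may not be separable.

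**Figure D4:**
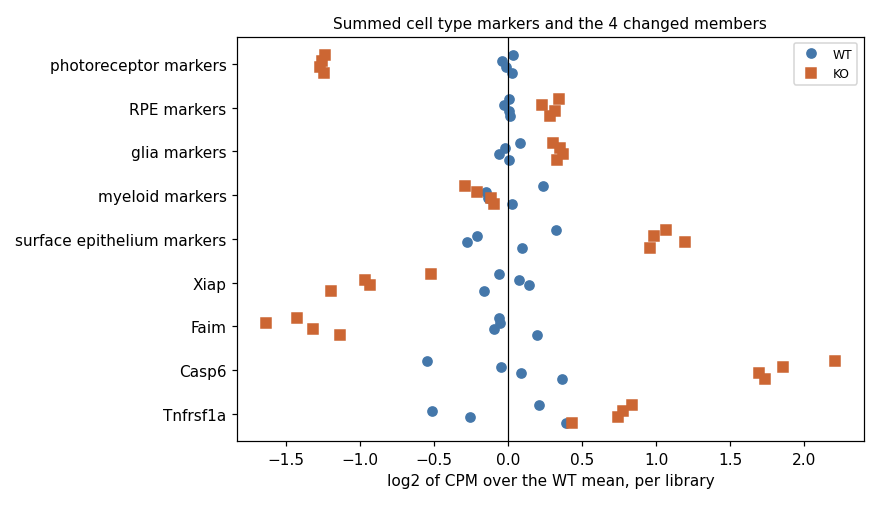
Log2 of the level over the Bbs8+/+ mean (x axis) in each library, for summed cell type markers and for the 4 differentially expressed members, with circles for WT and squares for KO. Photoreceptor markers lie near −1.25 in KO libraries, and Xiap and Faim lie on the same side. Surface epithelium, glia and RPE markers lie to the right, as do Casp6 and Tnfrsf1a, and myeloid markers overlap between genotypes.

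Of the 4 guardians of the BCL2 family, none passed the threshold by edgeR or by DESeq2, and Mcl1 had an unadjusted p under 0.05. MCL1 is a short-lived guardian whose level follows its synthesis. Mcl1 was at 62.3, 110, 88.3 and 62.4 CPM in Bbs8+/+ and at 106, 114, 107 and 100.3 CPM in Bbs8-/- libraries. The mutant libraries were tightly grouped near the top of a wide control range. The log2 difference was 0.41 with a standard error of 0.149 (adjusted p = 0.0691), and it passed in 5 of 15 alternative fits, with adjusted p from 0.00783 to 0.274 over all 15. Bcl2 was at 55.6 ± 8.67 and 49.0 ± 4.59 CPM (SD, n = 4; log2 fold change −0.18, interval −0.52 to 0.16). Bcl2l1, encoding BCL-XL, was at 60.1 ± 15.4 and 54.3 ± 7.45 CPM (−0.15, interval −0.50 to 0.21), and Bcl2l2, encoding BCL-W, at 19.98 ± 5.03 and 22.9 ± 5.80 CPM (0.19, interval −0.34 to 0.73). For all 4 guardians the interval lay within a 2-fold change in either direction. Exons of Bcl2l2 overlap Gm20521 on the same strand, and reads in both genes may not have been counted.

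The 3 effectors that form the pore were weakly covered, and none passed the test or had an unadjusted p under 0.05. Bak1 was at 1.02, 7.09, 2.86 and 9.29 CPM in Bbs8+/+ and at 7.80, 5.73, 11.2 and 3.49 CPM in Bbs8-/- RPE, with spread as wide as the means. Its log2 fold change of 0.47 had an interval from −0.63 to 1.57. Bax was at 6.29 ± 3.31 and 5.83 ± 2.11 CPM (SD, n = 4; interval −1.12 to 0.89), and Bok, a BAX relative, had at most 5 counts in any library. For each of these genes the interval reached past a 2-fold change in at least 1 direction. Exons of Bak1 overlap Ggnbp1 on the other strand. Those of Bax overlap Gm45808 on the same strand, and reads in both genes may not have been counted.

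Among the 7 BH3-only genes, 5 were tested and none passed by edgeR or DESeq2, while Bbc3 (higher) and Bad (lower) had an unadjusted p under 0.05. Bad, whose product binds BCL-XL when growth factor signals are lost, was at 75.8, 55.9, 62.1 and 61.7 CPM in Bbs8+/+ and at 44.3, 47.7, 47.2 and 47.5 CPM in Bbs8-/- libraries. The mutant libraries were almost equal and all below the controls. The log2 difference of −0.45, with a standard error of 0.160, did not pass (adjusted p = 0.0587, and from 0.0505 to 0.209 over 15 alternative fits). Bad overlaps exons of Gpr137 on the other strand.

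Bbc3, encoding PUMA, a p53 target that binds every guardian, had 0, 0, 3 and 1 counts in Bbs8+/+ and 10, 12, 3 and 4 counts in Bbs8-/- libraries. A pair of mutant libraries carried most of the difference. The fitted log2 difference was 2.71 with a standard error of 1.12 (adjusted p = 0.120), a value that depends on very few reads. Bcl2l11, encoding BIM, did not pass, at 14.5 ± 6.62 and 20.9 ± 3.49 CPM (SD, n = 4; log2 fold change 0.54, interval −0.07 to 1.14). Bmf had 2 to 24 counts per library and Bid, which links death receptors to mitochondria, 0 to 13 counts. Exons of Bid and of Bcl2l13 overlap on opposite strands.

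Bnip3, Bnip3l and Bcl2l13 belong to the BCL2 family by sequence and are known as mitophagy receptors. None passed the test or had an unadjusted p under 0.05. Bnip3l, encoding NIX, was at 77.9, 69.4, 70.7 and 68.4 CPM in Bbs8+/+ and at 69.8, 72.0, 83.2 and 66.0 CPM in Bbs8-/- RPE. The ranges overlapped (log2 fold change 0.02, interval −0.27 to 0.31). Bnip3, a hypoxia target, was at 24.4 ± 5.07 and 17.6 ± 5.75 CPM (SD, n = 4; log2 fold change −0.47, adjusted p = 0.317). Bcl2l13 was at 41.9 ± 11.2 and 34.3 ± 5.77 CPM (SD, n = 4; −0.28, adjusted p = 0.455).

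Of the genes that act after the pore opens, none of 5 passed by edgeR or by DESeq2, and none had an unadjusted p under 0.05. Aifm1, encoding the flavoprotein AIF of the intermembrane space, was at 60.3, 44.8, 45.8 and 44.6 CPM in Bbs8+/+ and at 45.6, 56.6, 55.2 and 45.1 CPM in Bbs8-/- libraries. The groups overlapped (log2 fold change 0.05, interval −0.30 to 0.40). Cycs, encoding cytochrome c, had a log2 fold change of −0.46 (interval −1.003 to 0.08), and reads it shares with its processed pseudogenes would not have been counted. Values were 0.07 for Diablo, an IAP antagonist (interval −0.43 to 0.58), and 0.03 for Endog, a mitochondrial nuclease (interval −0.62 to 0.68) that overlaps Spout1 on the other strand. Apaf1, the scaffold of the apoptosome, had 0 to 27 counts per library (interval −0.83 to 1.95). Exons of Diablo overlap Gm49027 on the same strand and B3gnt4 on the other.

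None of the 3 genes of the p53 axis passed the test or had an unadjusted p under 0.05. Mdm2, the ubiquitin ligase that p53 both induces and is degraded by, was at 46.7, 43.3, 46.6 and 55.7 CPM in Bbs8+/+ and at 43.5, 43.7, 44.4 and 63.6 CPM in Bbs8-/- RPE. Except for 1 mutant library at the top, the values were alike (log2 fold change 0.02, interval −0.33 to 0.38). Cdkn1a, encoding the cell cycle inhibitor p21, was at 17.3 ± 1.20 and 21.1 ± 5.43 CPM (SD, n = 4; log2 fold change 0.29, adjusted p = 0.564). Trp53 itself had 2 to 19 counts per library and an interval from −1.78 to 1.19.

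The 7 members not tested were near the floor. Fas, a death receptor, had 0 to 2 counts in Bbs8+/+ and 0 to 13 in Bbs8-/- libraries, and Ripk3, the necroptosis kinase, 0 to 3 and 0 to 12. Mlkl, the pore former of necroptosis, was at 0 in every Bbs8+/+ library and had 0 to 5 counts in Bbs8-/- libraries. The inflammatory caspases Casp1 and Casp4 had at most 11 and 5 counts in any library. Of the remaining BH3-only genes, Bik had at most 10 counts, all in 1 Bbs8-/- library apart from 4 counts in 1 control, and Pmaip1, encoding NOXA, had 1 count in all libraries together. In a fit of 17835 genes with no filter, none of the 7 passed (adjusted p 0.227 to 0.981 by edgeR), and 1, Mlkl, had an unadjusted p under 0.05. Differences of these genes were not detectable at this depth.

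The precision of the members followed their level. Of 9 members at 50 CPM or more, 2 were called (29.7% of all genes at that level), of 16 between 10 and 50 CPM, 1 (9.28% of all genes), and of 13 below 10 CPM, 1, Casp6 (2.85% of all genes). The median standard error of the log2 fold change was 0.145, 0.263 and 0.737 in these classes. For 18 of the 38 members (47.4%) the 95% interval lay within a 2-fold change in either direction, against 53.3% of all tested genes.

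Other genes of the same pathways were taken from lists of 115 genes, of which 87 were tested. The test called 12 of them, 7 up-regulated and 5 down-regulated (13.8%), again close to the 12.3% of all tested genes, and the median was 0.08 on the log2 scale. Among genes of the caspase machinery, Acin1, a chromatin factor cleaved by caspases, fell by 0.42 (adjusted p = 0.00122). Cast, the inhibitor of calpains, was up-regulated (0.67, adjusted p = 0.0230), and Siva1, a pro-apoptotic adaptor, down-regulated (−0.91, adjusted p = 0.0230).

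Of 23 tested genes around death receptors, 1 was up-regulated and 2 down-regulated (13.0%, near the 12.3% of all tested genes). Tnfaip3, encoding A20, the ubiquitin-editing enzyme that restrains NF-κB and cell death downstream of the TNF receptor, was at 23.0, 39.2, 39.2 and 35.7 CPM in Bbs8+/+ and at 22.6, 12.9, 20.002 and 8.74 CPM in Bbs8-/- libraries. The highest mutant library was just below the lowest control (log2 difference −1.10 with a standard error of 0.266, adjusted p = 0.00342). Chuk, encoding an IκB kinase subunit, was up-regulated (0.90, adjusted p = 0.00688), and Rbck1, a subunit of the linear ubiquitin ligase, had −0.64 (adjusted p = 0.0293). Of the ligand genes, Tnf and Tnfsf10 had at most 4 counts in any library and Fasl was at 0 in all. Among other relatives and partners of the BCL2 family, Tmbim6, encoding the endoplasmic reticulum protein BAX inhibitor 1, rose from 377 to 571 CPM (log2 fold change 0.60, adjusted p = 5.92e-05), and Bag6, a chaperone, fell from 114 to 74.0 CPM (−0.62, adjusted p = 0.00110).

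Of 39 genes listed by name as p53 targets or regulators, 32 were tested, with 3 up-regulated and 0 down-regulated by edgeR, 9.38% in all. An unadjusted p under 0.05 was found for 6 genes that were higher (18.8%) and 3 that were lower (9.38%), against 11.3% and 12.1% of all tested genes. DESeq2 called 5 up-regulated and 0 down-regulated, and 724 and 880 over all genes. The 3 were Gadd45g, a stress-induced growth arrest gene (0.95, adjusted p = 0.00131), Trp53inp2, an autophagy regulator (0.47, adjusted p = 0.00666), and Sesn3, a sestrin (0.29, adjusted p = 0.0401). Whether these 3 genes respond to p53 in this tissue was not tested, and the p53-axis members Cdkn1a and Mdm2 did not pass. The other tested genes of this list did not pass by edgeR. Of those with an unadjusted p under 0.05, the higher were Plk2 (1.57, adjusted p = 0.0508 by edgeR), Btg2 (0.40, 0.05004) and Mdm4 (0.38, 0.146). The lower were Sesn2 (−1.18, adjusted p = 0.121 by edgeR), Ppm1d (−0.71, 0.105) and Tigar (−0.59, 0.172). Log2 values were 0.07 for Ccng1 (interval −0.36 to 0.50), 0.38 for Zmat3 (−0.18 to 0.94) and −0.16 for Phlda3 (−1.36 to 1.04).

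Of the called genes named here, Tnfaip3, Gadd45g, Chuk, Bag6, Tmbim6 and Acin1 passed in all 15 alternative fits. The others lost the call when 1 library was left out. Adjusted p was then 0.0542 for Trp53inp2 (without Bbs8-/- replicate 4), 0.0617, 0.0992 and 0.0649 for Cast (without Bbs8+/+ replicates 2 or 3 or Bbs8-/- replicate 2), and 0.101 and 0.0745 for Siva1 (without Bbs8+/+ replicate 2 or Bbs8-/- replicate 1). For Rbck1 it was 0.0984, 0.132 and 0.0848 (without Bbs8+/+ replicate 4 or Bbs8-/- replicates 2 or 3), and scaling by library size alone also lost its call. For Sesn3 it was 0.0636 to 0.116 without any of 6 libraries, those other than Bbs8+/+ replicate 3 and Bbs8-/- replicate 3. Sesn3 also lost its call with the replicate number as a block (0.0630) and with no filter (0.0505), and it passed in 7 of 15 alternative fits.

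**Figure D5:**
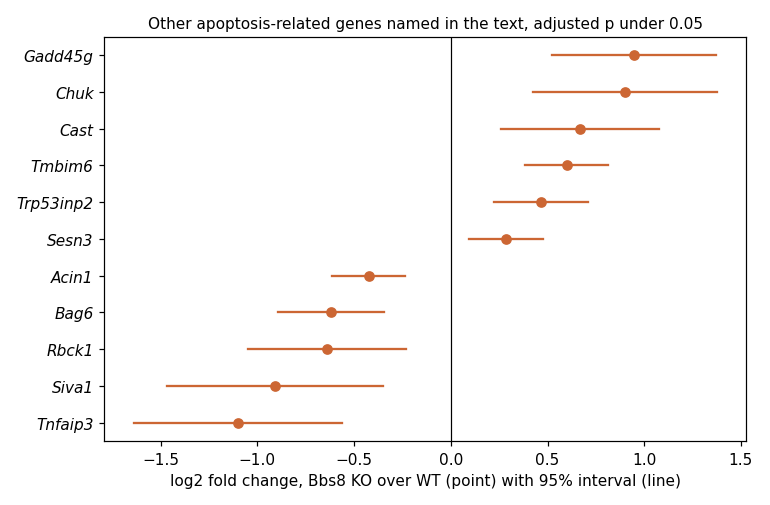
Log2 fold changes (x axis, Bbs8-/- over Bbs8+/+) of the called pathway genes named in the text that are not members, with 95% intervals as lines. Gadd45g at 0.95 and Tnfaip3 at −1.10 are the ends of the plotted range.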

How the data were processed

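RPE of Bbs8+/+ and Bbs8-/- mice was profiled in 4 libraries each by QuantSeq 3′ sequencing. The authors trimmed reads with BBDuk, aligned them with STAR to mm10 (Ensembl release 93 gene models), tallied unique alignments by gene with htseq-count, and deposited the raw counts of each library. Rows without a gene (reads not unique, ambiguous or outside genes) were 50.95% to 52.4% of Bbs8+/+ and 53.6% to 54.2% of Bbs8-/- libraries and were left out. Identifiers were named with GENCODE M21 (GRCm38). Genes reaching 1 CPM in 4 or more libraries were fitted with edgeR 4.0.16 in R 4.3.3 (TMM, quasi-likelihood F test, two-sided, Benjamini-Hochberg over 12889 genes, threshold 0.05), and standard errors were derived from the F statistic. The paper's filter on multi-mapping reads needs alignments and was not repeated. Alternatives were DESeq2 1.42.0, 3 other scalings, 2 other filters, a replicate term and leaving out each library. The members and lists were chosen with earlier results of these data known. Members past the threshold, those with an unadjusted p under 0.05 and the member with the highest mean CPM of each role were named with full values, and further genes were named after their values were seen. The fit was tested on simulated data. Some genes of the pathway lists are not reported here.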

Additional observations from a re-analysis of the deposited data

Results flagged for a closer look

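In 78 sets of 4 libraries (38 members and Ttc8 in each genotype), 8 held a library whose gap to the next exceeded Dixon's 95% critical value, and chance flags about 1 in 20, or 3.90 of 78. High libraries were Faim in Bbs8+/+ replicate 4 (133 CPM, others 108 to 112), Aifm1 in Bbs8+/+ replicate 1 (60.3 CPM, others 44.6 to 45.8), Birc6 in Bbs8-/- replicate 2 (166 CPM, others 136 to 139), Mdm2 in Bbs8-/- replicate 4 (63.6 CPM, others 43.5 to 44.4) and Endog in Bbs8-/- replicate 2 (16.5 CPM, others 10.8 to 11.5). Low libraries were Bad in Bbs8-/- replicate 1 (44.3 CPM, others 47.2 to 47.7), Bok in Bbs8+/+ replicate 2 (0.373 CPM, others 1.64 to 1.86) and Bok in Bbs8-/- replicate 3 (0 CPM, others 1.64 to 1.79). Both Bok values are below the floor of 3 counts. Of these genes only Faim was differentially expressed, and without Bbs8+/+ replicate 4 it remained past the threshold.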

How the results depend on the processing

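The calls of Xiap, Faim and Casp6 held in all 15 alternatives and that of Tnfrsf1a in 14. The members called down-regulated were Xiap and Faim in each alternative, and 2 or 3 were up-regulated. Without 1 library the log2 fold changes of Aifm1 were −0.0075 to 0.17, of Bnip3l −0.046 to 0.068, of Casp9 −0.28 to 0.13 and of Mdm2 −0.13 to 0.10, so that these uncalled values changed sign. Genes of the p53 list called up-regulated were 3, against 5 with library size scaling, 5 with DESeq2 and 5 with a filter at 5 CPM. Without 1 library, 1 to 4 of them were up-regulated and 0 to 1 down-regulated. Over the whole pathway list, the p53 list included, 7 were called up-regulated, against 11 with library size scaling. With library size scaling the log2 ratios of marker sums were −1.22 for erythrocytes, 0.43 for glia, −2.44 for lens, −1.17 for photoreceptors and 0.38 for RPE, and that of surface epithelium was 0.97 to 1.18 without 1 library. The causes of these shifts were not tested. Replicate numbers did not pair the libraries: correlations of deviations between libraries of the same number were −0.03 to 0.01, and 1 of 8 libraries correlated best with its own number. With the replicate block, 650 genes were up-regulated and 827 down-regulated, against 704 and 877, and Mcl1 passed (adjusted p = 0.0389). The depth limits genes below 10 CPM, 13 of the 38 members.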
